A study of Mus musculus with 8 samples.

Results

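The data described here are ATAC-seq peaks at the zinc finger protein genes that the mouse annotation names Zfp and a number, in neurons of the amygdala. ATAC-seq marks open chromatin as sites where the transposase Tn5 inserts more often than in the surrounding genome, and each library was deposited as its own list of peaks. A peak was counted for a gene when its summit lay in the gene or within 5 kb of it. By this rule 4443 of the 647290 peaks on chromosomes 1 to 19 of the 8 libraries lay at Zfp genes. These chromosomes hold 360 protein-coding Zfp genes of 20665 protein-coding genes, and 17 of the 360 had no peak in any library. A Zfp gene was called clustered when the next one lay within 200 kb. There were 226 clustered genes in 51 clusters and 134 single genes, and 16 of the clustered genes, in 3 clusters, lay on distal chromosome 4. Of the 4443 peaks, 2243 were at clustered genes, 735 of them on distal chromosome 4, and 2200 were at single genes.

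All 8 libraries came from male C57BL/6J mice, 4 per group, whose ages are not given in the labels. A viral vector delivered a guide RNA into the amygdala, directed at Rosa26 in the control group (sgRosa) and at Nr2f2 in the other (sgNr2f2). Nr2f2 encodes COUP-TFII, an orphan nuclear receptor that binds DNA. Every mouse of both groups went through tube restraint on 7 days, then fear conditioning on 1 day and extinction training on 3 days, so no group was unstressed. The labels used here do not name the nuclease or repressor that acts with the guide. The lists do not measure Nr2f2 mRNA or protein, so the loss of Nr2f2 was not checked. Nothing in the labels says that animals were pooled.

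Most Zfp genes encode proteins with arrays of C2H2 zinc fingers, each finger contacting a few bases of DNA. Many of them also carry a KRAB domain, which recruits the corepressor TRIM28 and, through it, the histone methyltransferase SETDB1 and HP1 proteins. Such KRAB zinc finger proteins are best known for silencing retrotransposons. Their genes arose by repeated local duplication and therefore sit in clusters of similar copies, and the distal chromosome 4 clusters are among the most recently expanded in the mouse. Single Zfp genes include older, long genes such as Zfp536, Zfp423 and Zfp521, which encode transcription regulators of neural and other development.

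The promoter sequences show how alike neighbouring copies can be. RefSeq promoters (build GRCm38.p6, the assembly of mm10) were matched for 301 of the 360 genes, and the 250 bases before the start site were aligned between genes. On distal chromosome 4, 8 of 12 matched promoters had a partner among Zfp promoters with at least 80% identity, against 18 of 184 in other clusters and 2 of 105 at single genes. Their median GC content was 40.6%, against 52.8% in other clusters and 58.4% at single genes. The first pair below is Zfp988, on the plus strand at chr4:147305354-147305603, and Zfp534, on the minus strand at chr4:147702632-147702881. It is shown because the genes differ in peaks in the gene or within 5 kb, 45 over the 8 libraries against 0. At the listed promoters themselves, a peak overlapped that of Zfp988 in 3 libraries and that of Zfp534 in 0. They matched at 231 of 263 aligned columns (87.8%), and capitals mark the bases not matched in the partner.
Zfp988: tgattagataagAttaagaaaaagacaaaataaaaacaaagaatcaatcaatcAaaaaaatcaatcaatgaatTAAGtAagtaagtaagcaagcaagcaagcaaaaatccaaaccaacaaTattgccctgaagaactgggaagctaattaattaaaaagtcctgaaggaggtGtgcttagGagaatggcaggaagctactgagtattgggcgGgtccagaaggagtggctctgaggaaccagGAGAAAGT
Zfp534: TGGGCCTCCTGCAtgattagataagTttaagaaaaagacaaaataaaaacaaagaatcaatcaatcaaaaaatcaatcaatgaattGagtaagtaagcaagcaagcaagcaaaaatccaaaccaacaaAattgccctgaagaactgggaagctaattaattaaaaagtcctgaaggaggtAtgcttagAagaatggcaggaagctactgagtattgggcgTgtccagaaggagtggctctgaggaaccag
The next pair, Zfp600 on the plus strand at chr4:146156577-146156826 and Zfp979 on the minus strand at chr4:147642509-147642758, is the most alike on distal chromosome 4, with 93.75% of aligned columns matched. Capitals again mark unmatched bases.
Zfp600: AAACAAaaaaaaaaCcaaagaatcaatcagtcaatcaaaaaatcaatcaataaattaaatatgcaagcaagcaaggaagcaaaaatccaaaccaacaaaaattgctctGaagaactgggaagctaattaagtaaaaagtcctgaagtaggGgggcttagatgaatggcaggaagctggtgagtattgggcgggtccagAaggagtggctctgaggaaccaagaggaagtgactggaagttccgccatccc
Zfp979: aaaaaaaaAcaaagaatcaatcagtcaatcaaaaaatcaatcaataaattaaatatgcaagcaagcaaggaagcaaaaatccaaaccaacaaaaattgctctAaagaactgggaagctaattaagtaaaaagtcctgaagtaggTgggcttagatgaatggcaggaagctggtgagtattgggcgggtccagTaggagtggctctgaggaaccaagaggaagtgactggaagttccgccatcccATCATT
Zfp966, on the minus strand at chr2:175931101-175931350, is shown as a promoter with no peak in any library. Its 250 bases are identical to those of Zfp967, on the plus strand at chr2:176520754-176521003, and capitals mark its 5 CpG dinucleotides.
Zfp966: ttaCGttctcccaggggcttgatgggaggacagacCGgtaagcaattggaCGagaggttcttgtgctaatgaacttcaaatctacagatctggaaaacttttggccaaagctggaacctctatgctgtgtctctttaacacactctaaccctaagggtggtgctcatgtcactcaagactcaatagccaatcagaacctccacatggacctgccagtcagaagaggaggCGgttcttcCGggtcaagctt
These promoters were chosen after their values were seen. Where copies are this alike, reads from one copy can be placed on another, and how the submitters treated reads with several matches is not given in the sources used here. Counts of single genes within such clusters are therefore uncertain.

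The hexamer that nuclear receptors recognise, AGGTCA on either strand, was sought in every listed promoter of a gene. A listed promoter runs from 250 bases before the start site to a short way past it. The hexamer occurred in any of these at 43 of 301 Zfp genes (14.3%). It occurred at 16.7% of the 16457 protein-coding genes and at 18.2% of all 25748 genes with a listed promoter. A match in this window is a description of the letters only.

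The libraries differed in length of list. The sgRosa libraries 1 to 4 held 63595, 62272, 60813 and 142509 peaks on chromosomes 1 to 19, and the sgNr2f2 libraries 1 to 4 held 103822, 97316, 63164 and 53799. Read depth is unknown, because the lists hold no read totals. Comparisons therefore used the strongest 53799 peaks of each library, ranked by the authors' −log10 p, unless said otherwise. All 8 of the neuron markers examined, such as Rbfox3 and Snap25, had a peak in at least 1 library, but so had all 11 of the markers of astrocytes, oligodendrocytes, microglia and endothelial cells found on these chromosomes. So had most genes, as only 7.65% of protein-coding genes other than Zfp genes had no peak in any of these lists. Having a peak therefore does not tell cell types apart. Peaks at the 8 neuron markers summed to 33 to 51 per sgRosa library and 26 to 41 per sgNr2f2 library, which overlap. Syt1 carried the lower sums in sgNr2f2: without it the 7 other neuron markers summed to 10 to 21 and 12 to 30. The sums in sgRosa and sgNr2f2 libraries were 1 to 6 and 4 to 10 at 3 astrocyte markers, 1 to 7 and 2 to 9 at 2 oligodendrocyte markers, 1 to 3 and 2 to 4 at 3 microglia markers, and 0 to 9 and 5 to 7 at 3 endothelial markers. Their part in the results below was not tested.

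In lists of equal length, Zfp genes carried 308, 383, 423 and 321 peaks in sgRosa libraries 1 to 4. They carried 448, 366, 450 and 415 in sgNr2f2 libraries 1 to 4. Per Mb of gene and flanks this was 26.8 ± 3.75 peaks (SD, n = 8 libraries), against 23.9 ± 1.62 at the other protein-coding genes. The ratio within a library averaged 1.113, lay above 1 in 6 of 8 libraries and passed an exact sign-flip permutation test over all sign patterns (two-sided p = 0.03125, Benjamini-Hochberg adjusted p = 0.0391 over 5 such tests). All libraries share the same genome, so this and the later sign-flip tests speak of libraries, not of genes. Without the 16 genes of distal chromosome 4 the ratio was 0.966 and the exact permutation p was 0.445, so the higher density rested on those genes. It also did not pass in full lists (ratio 1.08, exact permutation p = 0.09375) or without regions found in all 8 libraries (1.07, exact permutation p = 0.102). Nor did it pass when sgRosa 2, sgRosa 3 or any 1 of the sgNr2f2 libraries was left out (exact permutation p = 0.0625 each, over 7 libraries).

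Distal chromosome 4 stood apart from every other class of Zfp gene. Its genes carried 84, 80, 80 and 66 peaks in the sgRosa libraries and 78, 80, 90 and 81 in the sgNr2f2 libraries. The density there ranged from 51.3 to 69.9 peaks per Mb, while other Zfp clusters had 12.6 to 26.99 and single genes 18.8 to 29.3. No library's value on distal chromosome 4 overlapped any library's value in the other classes. Within a library the density was 2.77 times that of other Zfp clusters on average (range 2.32 to 5.17, above 1 in 8 of 8 libraries, exact sign-flip permutation p = 0.0078125, the smallest the test allows, adjusted 0.0130). The highest ratio, 5.17, was that of sgRosa 1, which had the lowest density in other clusters.

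**Figure D1:**
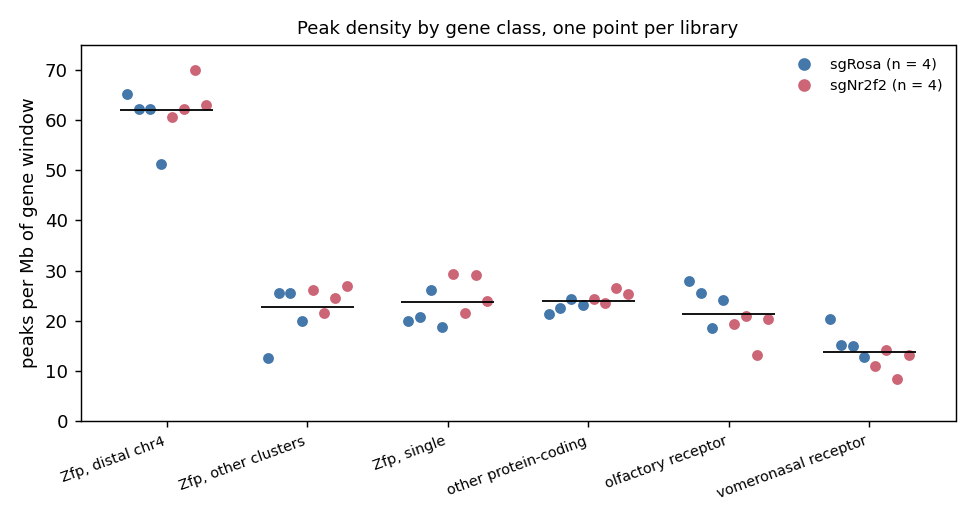
Peaks per Mb of gene and 5 kb flanks (vertical axis) in lists of equal length, by class of gene (horizontal axis), with 1 point per library, blue for sgRosa and red for sgNr2f2. Distal chromosome 4 lies at 51.3 to 69.9 in the 8 libraries, above all values of the other 5 classes, which reach 29.3.

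The higher density of clustered genes rested on distal chromosome 4. All clustered genes together had 1.28 times the density of single genes (range over libraries 1.111 to 1.55, above 1 in 8 of 8, exact sign-flip permutation p = 0.0078125, adjusted 0.0130). With distal chromosome 4 left out, the ratio of clustered to single genes was 0.951 (exact permutation p = 0.594). Other clusters averaged 22.8 ± 4.79 peaks per Mb and single genes 23.7 ± 4.07 (SD, n = 8), close to the 23.9 of other protein-coding genes.

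Other gene families that sit in clusters were compared, the olfactory receptor genes (1100 Olfr genes) and the vomeronasal receptor genes (352 Vmn1r and Vmn2r genes), which sense odours and pheromones in the nose. Zfp genes had 1.98 times the density of vomeronasal receptor genes, higher in each library (exact sign-flip permutation p = 0.0078125, adjusted 0.0130), and 1.72 times without distal chromosome 4 (exact permutation p = 0.0156). Without distal chromosome 4 the Zfp density was lower in sgRosa 1, with 16.9 against 20.4 peaks per Mb. Against olfactory receptor genes the ratio was 1.27 and did not pass the test (exact permutation p = 0.09375), and it was 1.107 without distal chromosome 4 (exact permutation p = 0.484). In that comparison the olfactory receptor density ranged from 13.2 in sgNr2f2 3 to 27.9 in sgRosa 1. Leaving out sgRosa 1 raised the Zfp to olfactory ratio to 1.37 (exact permutation p = 0.0469).

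The 16 genes of distal chromosome 4 span chr4:145510759-147849126, which is 2.34 Mb. The cluster with 12 of them, at chr4:146449030-147849126, held 604 peaks over the 8 libraries, or 67.7 per Mb and library. It held 79, 76, 74 and 61 peaks in the sgRosa libraries and 75, 77, 86 and 76 in the sgNr2f2 libraries, and these ranges overlap. The 2 smaller clusters, Zfp990 with Zfp980 and Zfp987 with Zfp600, had 20.004 and 30.1 peaks per Mb and library. Between the gene windows of the same span the density was 27.3 to 50.9 per Mb. Peaks were thus unevenly placed along the span. Of 25 bins of 100 kb from just before the first gene to the last, 5 had no peak in any library and 5 averaged at least 10 peaks. The first of the 25 bins was among these 5, though it lay before the window of the first gene. It held 13, 8, 10 and 10 peaks in the sgRosa libraries and 13, 8, 13 and 7 in the sgNr2f2 libraries. The fullest bin averaged 21.6 peaks and held at least 14 in each library. In the 39 bins farther out, up to 2 Mb to each side, the highest average was 3.88.

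**Figure D2:**
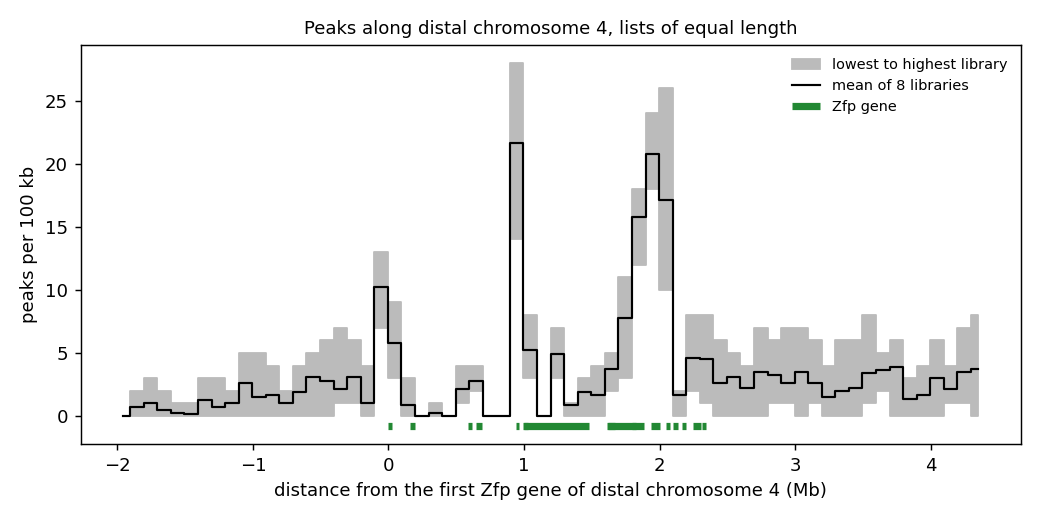
Peaks per 100 kb (vertical axis) against distance in Mb from the first Zfp gene of distal chromosome 4 (horizontal axis) in lists of equal length, with the black line for the mean of 8 libraries, grey for the lowest to highest library and green bars for Zfp genes. The peaks gather in a few bins that average up to 21.6, next to bins with none.

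Genes within the distal chromosome 4 clusters differed widely. Zfp978 (chr4:147124882-147392027) had 28, 26, 23 and 19 peaks in the sgRosa libraries and 22, 26, 24 and 18 in the sgNr2f2 libraries. Its annotated span holds Zfp991 and Zfp988, so some of its peaks count for those genes too. Zfp982 (chr4:147443114-147516064) had 17, 12, 17 and 11 peaks in the sgRosa libraries and 13, 18, 19 and 15 in the sgNr2f2 libraries. The groups overlapped at both genes, and every library had many peaks there. Zfp993, annotated over 479 kb, had 15, 13, 14 and 7 peaks in sgRosa and 14, 13, 12 and 15 in sgNr2f2 libraries. Its annotated span overlaps that of Zfp981, so some of its peaks count for Zfp981 too. Zfp985, Zfp981, Zfp992, Zfp984 and Zfp988 followed with 61, 50, 50, 46 and 45 peaks over the 8 libraries. Zfp600, Zfp933, Zfp979, Zfp991, Zfp980 and Zfp990 had 22, 15, 13, 9, 7 and 6. Zfp987 and Zfp534 had 0, also in the full lists. Counted per length, Zfp992 was highest, with 2.06 peaks per 10 kb of window and library, followed by Zfp982 with 1.84 and Zfp985 with 1.82.

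Peaks on distal chromosome 4 recurred from library to library. Overlapping peaks of the 8 lists were merged into 405149 regions, of which 2551 were at Zfp genes. On distal chromosome 4, 47.4% of 251 regions were found in at least 2 libraries, against 6.48% of 941 in other clusters, 5.81% of 1359 at single genes and 5.13% of all regions. In at least 4 libraries there were 57 Zfp regions, 49 on distal chromosome 4, 7 in other clusters and 1 at a single gene. Zfp genes thus held 0.630% of all regions but 8.84% of the 645 regions found in at least 4 libraries. All 10 Zfp regions found in all 8 libraries were on distal chromosome 4, of 223 such regions in the genome. These shares are descriptions, with no test over regions.

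**Figure D3:**
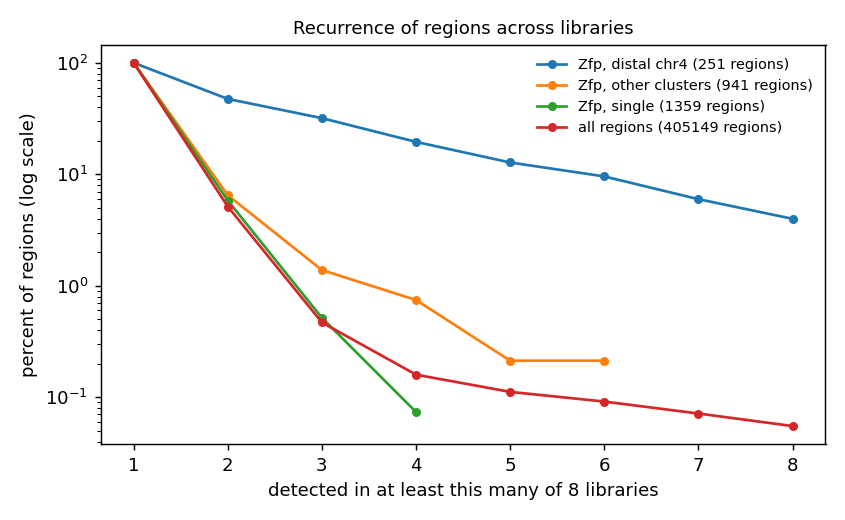
Percent of regions (vertical axis, log scale) found in at least the number of libraries on the horizontal axis, for Zfp regions on distal chromosome 4, in other clusters and at single genes, and for all regions. The distal chromosome 4 line stays above the others, at 47.4% for 2 libraries and 19.5% for 4.

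The region with the lowest mean rank, that is the strongest, was chr4:147122642-147123645, 1004 bp long and just outside Zfp978. Its −log10 p was 13.96, 8.02, 18.68 and 8.16 in the sgRosa libraries and 11.68, 19.64, 26.62 and 14.42 in the sgNr2f2 libraries, and it ranked between 128 and 385 in each list. The next was chr4:147343005-147343987, inside Zfp978, with −log10 p from 6.63 to 18.57. The third, chr4:147586137-147587423, lay just outside Zfp985 and ranged from 6.57 to 13.64. The fourth, chr4:146456389-146458065, was the longest at 1677 bp and lay inside Zfp992. Another 4 of the 10 lay in Zfp978, at chr4:147234832-147235669, chr4:147336405-147337544, chr4:147337997-147338790 and chr4:147349322-147350048. The last were chr4:146167272-146167632 in Zfp600 and chr4:146739598-146740105 in Zfp993. The scores are the authors' and were used only within a list.

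The recurrent regions on distal chromosome 4 were placed against gene bodies and start sites. Of the 24 found in at least 6 libraries, 19 lay in the body of a Zfp gene and 5 outside, and 0 lay within 1 kb of a start site where the promoter table gives one. Over all Zfp genes, gene bodies make up 77.7% of the window length. That share does not carry over to distal chromosome 4, where genes are longer (median 32.8 kb against 18.1 kb over all Zfp genes). The share on distal chromosome 4 alone was not calculated, so the 19 of 24 are given without an expectation by length. Median length of the 24 regions was 731.5 bp, from 304 to 1677 bp. By gene, 9 of the 24 were at Zfp978, 5 at Zfp993, 4 at Zfp982, 2 at Zfp992 and 2 at Zfp600. Zfp978 and Zfp992 have no listed start, so distance to their own start could not be measured.

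Outside distal chromosome 4, 8 regions recurred in at least 4 libraries. The region chr16:3874393-3874555, in Zfp597 and near Zfp174, was found in 2 sgRosa and 4 sgNr2f2 libraries. At Zfp180 on chromosome 7, chr7:24104974-24105902 was found in 2 sgRosa and 4 sgNr2f2 libraries and chr7:24106370-24107310 in 1 and 3. Another 4 lay in Zfp936 on chromosome 7, each in 2 libraries of either group. The only one at a single gene was chr9:19621918-19622362 at Zfp317, in 3 sgRosa libraries and 1 sgNr2f2 library. It covers a listed start of Zfp317, which lies 49 bp from its centre.

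Peaks on distal chromosome 4 were also stronger by q, and wider, within their lists. Fold enrichment differed less. Its median, averaged over libraries, was 2.94 there, 2.83 in other Zfp clusters, 2.77 at single Zfp genes and 2.76 over all peaks. In sgRosa 2 it was 2.87 in each of these classes of Zfp gene. Averaged over libraries, 47.2% of the distal chromosome 4 peaks had q under 0.05, against 17.1% in other Zfp clusters, 14.4% at single Zfp genes and 15.0% of all peaks. Median width was 206 bp on distal chromosome 4, 173 bp in other clusters, 172 bp at single genes and 171 bp over all peaks. Among the 300 strongest peaks of a library, 2 to 11 were at Zfp genes, and 0 of them in any library were at single genes.

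Other clusters had a median of 23.6 peaks per Mb and library, from 0 in 3 clusters to 65.4 in Zfp936 with Zfp715 on chromosome 7. Zfp936 alone had 3, 6, 13 and 5 peaks in the sgRosa libraries and 8, 8, 3 and 7 in the sgNr2f2 libraries. The groups overlapped there. The 9 largest other clusters, of 6 to 19 genes, had 15.3 to 36.2 peaks per Mb and library. The largest, 19 genes on chromosome 13, had 15.3, the 18 genes at chr17:21383707-22456689 had 22.7 and the 15 genes at chr7:29768552-30169775 had 20.2. That chromosome 7 cluster includes Zfp568, whose protein is known to repress a placental promoter of Igf2. Its counts were 1, 12, 4 and 2 in the sgRosa libraries and 11, 9, 9 and 10 in the sgNr2f2 libraries, which overlap because sgRosa 2 was high. In 51 of 51 clusters the 2 groups overlapped in number of peaks. The 7 genes on chromosome 2 that share a promoter at 90% identity or more (Zfp965, Zfp966, Zfp967, Zfp968, Zfp970, Zfp971 and Zfp973) held 1 peak in the 8 libraries together.

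The single genes with most peaks were long. Zfp536, a regulator of neuronal differentiation that spans 456 kb on chromosome 7, had 14, 11, 22 and 2 peaks in the sgRosa libraries and 17, 15, 12 and 22 in the sgNr2f2 libraries. Zfp423, a cofactor needed in cerebellar development, had 7, 1, 17 and 5, and 14, 5, 17 and 6. Zfp407 had 2, 12, 8 and 5, and 12, 6, 10 and 10. At all 3 genes the groups overlapped and single libraries differed by several-fold within a group. The Spearman correlation of gene length with peaks over the 8 libraries, across genes and as a description only, was 0.778 for 134 single genes, 0.552 for 16 distal chromosome 4 genes and 0.340 for 210 genes of other clusters. Genes are not independent replicates, and a longer gene has a longer window. With no peak in any equal list there were 23 Zfp genes (6.39%, against 7.65% of other protein-coding genes), 2 of them on distal chromosome 4, 16 in other clusters and 5 single. In the full lists 17 had none.

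Few Zfp start sites had a peak in several libraries. In windows of the 301 genes with a listed start, 48.2 ± 26.5 summits per Mb and library lay in the 500 bases before it and 46.5 ± 29.5 in the 500 bases after it (SD, n = 8). The other genes had 45.1 ± 17.6 and 28.9 ± 6.36 at the same places. The Zfp values ran from 0 to 86.4 per Mb over libraries just after the start, which is wider than the gap to other genes. A peak within 1 kb of a listed start in at least 1 library was seen at 114 of these 301 genes, and in at least 4 libraries at 4, Zfp993, Zfp936, Zfp988 and Zfp317. For the 59 Zfp genes with no listed start either gene end was used instead, which gave 32 genes in at least 1 library and 2, Zfp978 and Zfp647, in at least 4. Over starts and ends combined in this way, 40.6% of 360 Zfp genes had such a peak in at least 1 library, against 41.8% of other protein-coding genes, and 1.67% against 0.611% in at least 4. Between 74.9% and 82.3% of the Zfp peaks of a library lay in a gene body, which makes up 77.7% of the window length.

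The groups were compared first by the percent of a library's peaks that lay at Zfp genes. It was 0.667 ± 0.100% in sgRosa and 0.780 ± 0.0730% in sgNr2f2 libraries (SD, n = 4 each), with overlapping values (exact permutation over 70 assignments, two-sided p = 0.143, adjusted 0.343 over 6 tests). Single genes accounted for 0.304 ± 0.0457% and 0.368 ± 0.0541% (n = 4 each, exact permutation p = 0.143, adjusted 0.343). Clustered genes accounted for 0.363 ± 0.0641% and 0.412 ± 0.0264% (n = 4 each, exact permutation p = 0.171, adjusted 0.343). Distal chromosome 4 accounted for 0.144 ± 0.0147% and 0.153 ± 0.00988% (n = 4 each, exact permutation p = 0.486, adjusted 0.543), and in full lists the difference had the other sign. None of these 4 differences passed the test, whose smallest possible p is 0.0286. Other protein-coding genes accounted for 47.1 ± 2.62% in sgRosa and 51.4 ± 2.64% in sgNr2f2 libraries (SD, n = 4 each), a difference that was not tested.

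**Figure D4:**
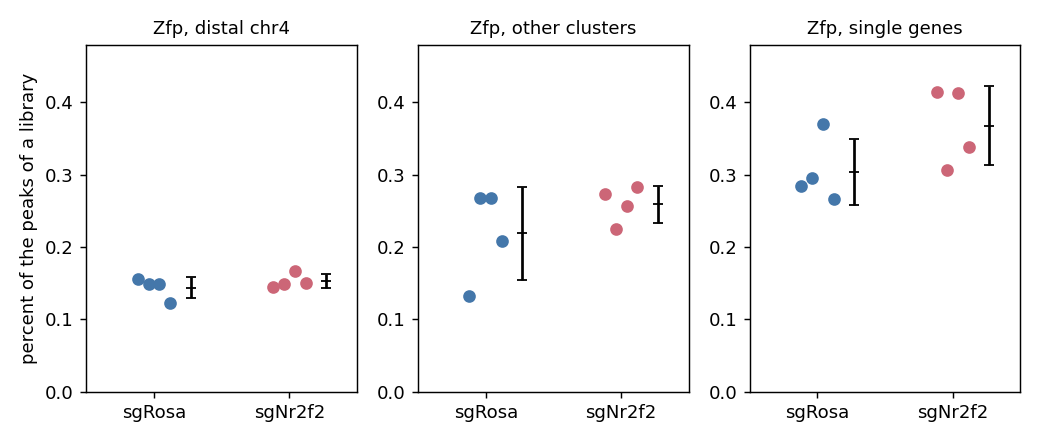
Percent of a library's equal-length list at Zfp genes of distal chromosome 4, other clusters and single genes (3 panels), with 1 point per library and the mean with SD beside each group of 4. The 2 groups overlap in each panel.

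The log2 ratio of cluster to single-gene density was 0.389 ± 0.203 in sgRosa and 0.312 ± 0.173 in sgNr2f2 libraries (n = 4 each, exact permutation p = 0.543). A peak within 1 kb of a listed start, or of either end where no start is listed, was found at 29 ± 5.89 Zfp genes per sgRosa library and 25.75 ± 6.75 per sgNr2f2 library (n = 4 each, exact permutation p = 0.514). Counting either end of every Zfp gene, for which no strand is needed, turned the difference from -3.25 to 1.5 genes.

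Gene by gene, the number of peaks as log2(peaks + 1) was compared between groups with limma over the 11832 genes that had a peak in at least 4 libraries. Of 201 Zfp genes tested, 0 passed an adjusted p of 0.05 in either direction, as did 0% of all genes. At an unadjusted p under 0.05, 8 Zfp genes were higher and 1 lower in sgNr2f2, against 3.79% and 1.65% of all genes. The median log2 difference was 0.15 over Zfp genes and 0.10 over all genes, with 61.2% and 59.3% of the differences positive. Counts in which the groups did not overlap were higher in sgNr2f2 at 2 Zfp genes (1.3% of all genes) and higher in sgRosa at 0 (0.583% of all genes).

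The first of these was Zfp521, a transcription cofactor of neural and blood progenitors, on chromosome 18. It had 3, 5, 2 and 5 peaks in the sgRosa libraries and 7, 9, 10 and 9 in the sgNr2f2 libraries. Each sgNr2f2 library thus had more than each sgRosa library, with a log2 difference of 1.09 (SE 0.431) and a limma adjusted p of 0.793. The other was Zfp51, in the chromosome 17 cluster, with 0 peaks in each sgRosa library and 1, 3, 2 and 1 in the sgNr2f2 libraries (log2 difference 1.40, SE 0.430, limma adjusted p = 0.567). It entered the test only through its peaks in sgNr2f2. Neither passed, and their counts are low.

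The remaining genes with an unadjusted p under 0.05 are named after their values were seen. Zfp469, a gene tied to corneal collagen, had 0, 6, 4 and 3 peaks in sgRosa and 10, 6, 13 and 6 in sgNr2f2 libraries. Zfp326, a protein of mRNA splicing, had 0, 0, 2 and 0, and 2, 1, 4 and 5. Zfp592 had 1, 2, 1 and 0, and 3, 2, 5 and 5. Zfp879, Zfp850 and Zfp35 had at most 3 peaks in any library. Zfp292, the 1 gene lower in sgNr2f2, had 2, 3, 7 and 1, and 0, 2, 1 and 0. All of these groups overlap. Zfp326, Zfp879, Zfp850 and Zfp35 had peaks in only 1 sgRosa library each, so they entered the test through their peaks in sgNr2f2. Zfp292 entered it through its peaks in the sgRosa libraries.

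**Figure D5:**
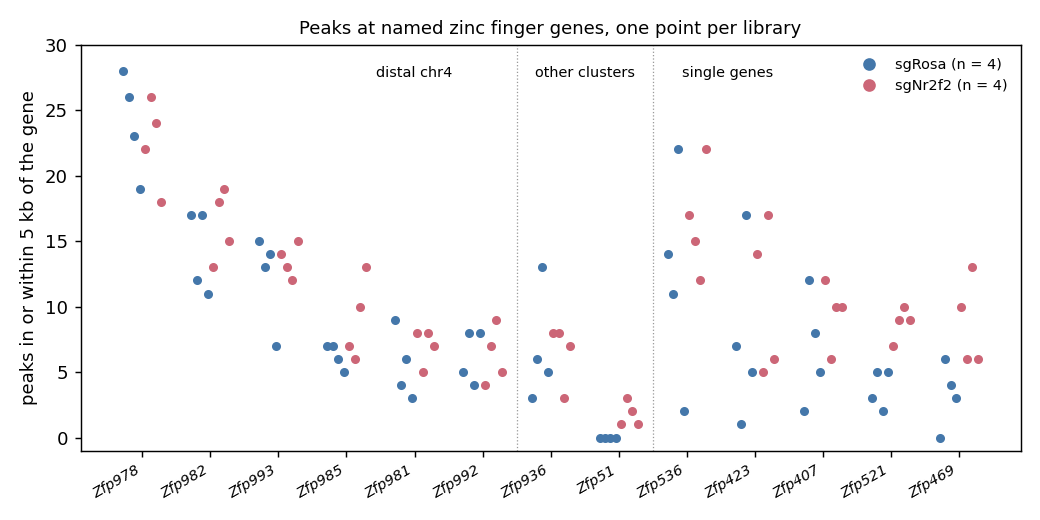
Peaks in or within 5 kb of 13 named Zfp genes (vertical axis), with 1 point per library in blue (sgRosa, n = 4) or red (sgNr2f2, n = 4) and dotted lines between distal chromosome 4, other clusters and single genes. Only at Zfp521 and Zfp51, of the 13 genes drawn, do the groups not overlap.

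By the same measure of starts and ends, a peak found by all 4 libraries of a group, with 0 in the opposite group, occurred at 0 Zfp genes in either direction, against 1.54% (sgNr2f2 only) and 2.31% (sgRosa only) of the 130 genes with such a peak in at least 4 libraries. By either gene end, Zfp879 had a peak in 4 sgNr2f2 and 0 sgRosa libraries (0.769% of 260 genes), and 0 Zfp genes had the reverse (1.92%). By its listed start it had one in 3 sgNr2f2 libraries. Of the 57 Zfp regions found in at least 4 libraries, 1 was shared by the 4 sgRosa libraries while 0 sgNr2f2 libraries had it, against 0.62% of 645 regions. This was chr4:147452716-147453099, 384 bp inside Zfp982 and 9793 bp from the start, with −log10 p of 3.26, 4.03, 3.20 and 3.91. When only peaks with q under 0.05 were used, 0 such regions were left. No Zfp region was in all sgNr2f2 libraries alone (0.62% of 645 regions).

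The corepressor machinery that KRAB zinc finger proteins use was examined as a list of 18 genes, of which 17 lay on these chromosomes and 13 were tested. By limma 0 passed in either direction, and 1, Cbx3, was lower in sgNr2f2 at an unadjusted p under 0.05, against 1.65% of all genes. The list's peaks summed to 16, 16, 25 and 22 in the sgRosa libraries and 23, 21, 29 and 12 in the sgNr2f2 libraries, which overlap. Cbx3 encodes HP1 gamma and had 3, 2, 3 and 2 peaks in sgRosa libraries and 0, 0, 1 and 0 in sgNr2f2 libraries (log2 difference -1.54, SE 0.506, limma adjusted p = 0.567). The groups did not overlap, as at 0.583% of all genes in this direction. It was tested only because of its peaks in the sgRosa libraries, was named after its values were seen, and did not pass.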

How the data were processed

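ATAC-seq libraries of magnetically isolated amygdala neurons were grouped by the guide in the sample titles, with replicate numbers from the same titles. Each library was deposited as its own narrowPeak list in mm10 coordinates, so peaks were called per library. Per the submitters' processing notes, Picard, fastp 0.23.2, FastQC 0.11.9, MultiQC 1.11, MACS2 2.2.9.1, DiffBind 3.10.0 and HOMER 4.10 were used. Aligner, calling options, Tn5 shift, duplicate removal and any repeat filter are not given in the sources used here.

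Deposited lists give the authors' fold enrichment at the summit (a ratio over background), −log10 p, −log10 q and an integer score, which equalled 10 times −log10 p rounded down for 100% of peaks and was not used. No deposited −log10 p was below 2.00, and no peak was narrower than 150 bp. These values are not scaled between libraries and served only to rank or describe peaks within a list. Depth is unknown, so no interval for counting error is given.

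Where 1 interval had several summits only the strongest was kept, so that 3465 lines were dropped. Gene positions were read from RefSeq (GRCm38.p6) and start sites from its promoter table. Density is the number of summits per Mb of merged gene windows. Ratios within libraries were tested by exact sign flips, group means by exact permutation, and peaks per gene with limma 3.58.1 (trend, pseudocount of 1, Benjamini-Hochberg adjustment) in R 4.3.3. Regions merge overlaps of at least 1 bp. Promoters were aligned with biopython 1.88 (Python 3.11.15, scipy 1.17.1). The scripts were tested on simulated data.

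The text names the 12 Zfp genes with most peaks, the 6 with most per kb, those on distal chromosome 4, those whose groups do not overlap, and regions in all 8 libraries. Other named items were picked after their values were seen. The members and lists were chosen with earlier results of these data known. The alternatives tried are given in the closing section.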

Additional observations from a re-analysis of the deposited data

Results flagged for a closer look

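Among 102 checks of 1 library against the other 3 of its group, 15 stood apart by Dixon's test at its 95% level. At that level chance gives about 1 in 20 per group checked where values are continuous. Of the 15, the one on a density was the log2 ratio of distal chromosome 4 to other Zfp clusters, which was 2.37 in sgRosa 1 and 1.28 to 1.37 in the other sgRosa libraries. The other 14 are counts of a few peaks, where 1 or 2 peaks make the gap. In each of them the other 3 libraries were equal, so any gap fills the range and that chance rate does not hold. Zfp600 had 3 peaks in sgNr2f2 3 against 2 in each of the others. Zfp979 had 0 in sgRosa 2 against 2, and 1 in sgNr2f2 1 against 2. Zfp991 had 2 in sgNr2f2 3 against 1. Zfp990 had 2 in sgRosa 3 against 1, and 1 in sgNr2f2 3 against 0. Zfp326 had 2 in sgRosa 3, Zfp879 had 1 in sgRosa 4, Zfp850 had 1 in sgRosa 1 and Zfp35 had 1 in sgRosa 3, each against 0. Zfp35 also had 3 in sgNr2f2 4 against 1. The cluster of Zfp990 and Zfp980 had 1 peak in sgRosa 1 against 2, and 3 in sgNr2f2 4 against 1. The cluster of Zfp987 and Zfp600 had 3 in sgNr2f2 3 against 2.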

How the results depend on the processing

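Depth is unknown, each list was called separately, and 4 libraries per group cannot give an exact p below 0.0286. The density of Zfp against other protein-coding genes (log2 ratio 0.154) was 0.107 in full lists, 0.101 without regions found in all 8 libraries and 0.128 to 0.185 without 1 library (exact permutation p 0.03125 to 0.0625), and it turned to -0.0494 without distal chromosome 4. Clustered against single genes turned to -0.0718 without distal chromosome 4. That alternative, the olfactory and vomeronasal comparisons and the either-end count were chosen after seeing the data. Zfp against olfactory receptor genes passed with half-length lists (log2 ratio 0.53, exact permutation p = 0.0234) and ranged from 0.225 to 0.457 without 1 library, passing only without sgRosa 1 (0.457). The distal chromosome 4 share by group was -0.000344 percentage points (sgNr2f2 minus sgRosa) in full lists. The group difference in the log2 ratio of cluster to single-gene density ran from -0.154 to 0.00468 without 1 library, the highest without sgRosa 2. The group difference in Zfp genes with a peak at a start or end was 1.5 when either end was used for every gene. Exclusive Zfp regions in sgNr2f2 numbered 1 in full lists and 0 to 3 without 1 library, and in sgRosa 0 with q under 0.05 and 1 to 3 without 1 library. Without 1 library the rule is easier to meet, because fewer libraries have to hold or lack a peak. For all of the changes listed here the cause was not tested. The other 200 values of main comparisons kept direction and call. With the pseudocount, filter and trend alternatives limma still called 0 Zfp genes.

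Same-numbered libraries of the groups did not deviate together (correlations -0.0025 to 0.0095), so the numbers were not taken as pairs. With the replicate block the exact permutation p was 0.25 for the Zfp share, 0.375 for clustered, 0.125 for single and 0.5 for distal chromosome 4 genes, 0.375 for the cluster to single ratio and 0.375 for starts and ends, and limma called 0 Zfp genes. The smallest p that 4 pairs allow is 0.125, so no blocked share could pass. The single-gene share was at that smallest value, higher in sgNr2f2 in 4 of 4 same-numbered pairs. This was not particular to Zfp genes. The share at other protein-coding genes was 43.99, 46.58, 50.32 and 47.61% in sgRosa libraries 1 to 4. It was 50.29, 48.46, 54.63 and 52.14% in sgNr2f2 libraries 1 to 4, also higher in each pair.

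Differences of named genes that did not pass changed sign in places (log2 sgNr2f2 minus sgRosa). Zfp936 was -0.1315 with half-length lists, -0.04544 ordered by fold and -0.2316 to 0.3709 without 1 library. Zfp992 was 0.01472 with half-length lists, 0.08048 ordered by fold, 0.1842 without regions in all 8 libraries and -0.1761 to 0.1573 without 1 library. Zfp988 was 0.1871 ordered by fold and -0.193 to 0.06328 without 1 library. Zfp984 was -0.1044 in full lists, -0.08048 with half-length lists and -0.1403 to 0.3003 without 1 library. Without 1 library Zfp978 ran from -0.1901 to 0.01083, Zfp993 from -0.05108 to 0.2823, Zfp933 from -0.05067 to 0.7233 and Zfp979 from -0.1462 to 0.3962.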
